A study of Homo sapiens with 8 samples.

Results

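NANOG binding in H9, a human embryonic stem cell line, was described from the peaks called in 1 NANOG chromatin immunoprecipitation sequencing (ChIP-seq) library against 1 IgG library of the same line. All peaks of that list on chromosomes 1 to 22 and X were taken, which gave 33838 of the 201619 peaks in the 6 lists of the study. The study mapped SOX2, OCT4 and NANOG, each with 1 library, in H9 and in the embryonal carcinoma line NT2/D1, and had an IgG sample for each line (8 labelled samples in all). Both H9 samples used here are untreated H9 cells as far as the labels say, with no allele, agent or time point given, sonicated and pulled down on antibody-linked beads, and sequenced on a SOLiD instrument. With 1 library there was no replicate error, so the 95% Wilson intervals beside shares reflect counting error alone, and no test between conditions was made. The NANOG library held 54046559 unique tags of 67197681 (80.4%) and the IgG library 58012070 of 84245266 (68.9%), per the file headers.

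NANOG is a homeodomain transcription factor of the pluripotent epiblast and of embryonic stem cells. It is known to act with OCT4 (the product of POU5F1) and SOX2, often at enhancers that lie far from the genes they serve, and to take part in keeping stem cells from differentiating. Homeodomain proteins recognise short AT-rich sites with a TAAT core, OCT4 recognises an octamer, and SOX proteins recognise sites with an ACAA core.

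A gene start here is the transcription start site to which the deposited distances point. The 9 promoters below belong to genes with a peak summit from 250 bases before to 50 bases after the start. Among genes with an entry in the RefSeq promoter table, 6 are those with the highest-scoring such summit. The other 3, also with an entry, are the core pluripotency genes with such a summit (L1TD1, DPPA4 and NANOG), whatever its score. Higher-scoring peaks near a start, among them that of POU5F1, had their summit outside this range. SALL4, a core gene, had a summit 2 bp before its start, and its sequence is not shown. Each is the 300-base RefSeq promoter in GRCh38.p14, written 5′ to 3′ on the strand of the gene. The start in RefSeq may differ from the one in the deposited list, whose peaks are in hg19. Capitals mark matches on either strand to TAATGG or TAATTG (homeodomain), ATGCAAAT (octamer), and ACAATG or ACAAAG (SOX).
CER1: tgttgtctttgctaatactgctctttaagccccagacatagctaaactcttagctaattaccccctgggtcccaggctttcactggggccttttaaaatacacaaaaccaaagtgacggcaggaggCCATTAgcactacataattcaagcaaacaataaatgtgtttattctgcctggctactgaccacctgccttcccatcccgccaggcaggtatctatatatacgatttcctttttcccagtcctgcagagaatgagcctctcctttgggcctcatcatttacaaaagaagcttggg
RPF1: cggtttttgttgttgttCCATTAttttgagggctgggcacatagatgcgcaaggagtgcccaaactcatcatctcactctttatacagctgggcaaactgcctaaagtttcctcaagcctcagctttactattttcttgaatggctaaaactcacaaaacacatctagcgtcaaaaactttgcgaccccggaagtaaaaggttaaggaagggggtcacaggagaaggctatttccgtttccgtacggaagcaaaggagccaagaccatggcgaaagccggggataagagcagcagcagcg
MACROH2A1: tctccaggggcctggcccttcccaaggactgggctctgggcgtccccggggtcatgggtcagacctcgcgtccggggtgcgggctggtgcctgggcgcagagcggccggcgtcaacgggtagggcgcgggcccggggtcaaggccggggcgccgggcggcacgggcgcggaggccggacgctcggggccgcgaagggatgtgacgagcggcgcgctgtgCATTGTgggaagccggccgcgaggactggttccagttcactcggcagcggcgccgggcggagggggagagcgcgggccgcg
TIMP4: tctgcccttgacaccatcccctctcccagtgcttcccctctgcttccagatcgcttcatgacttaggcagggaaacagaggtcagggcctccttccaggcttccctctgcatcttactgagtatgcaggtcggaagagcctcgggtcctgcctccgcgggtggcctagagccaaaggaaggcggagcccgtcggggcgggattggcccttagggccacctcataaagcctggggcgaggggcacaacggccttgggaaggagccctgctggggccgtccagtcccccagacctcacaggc
SP5: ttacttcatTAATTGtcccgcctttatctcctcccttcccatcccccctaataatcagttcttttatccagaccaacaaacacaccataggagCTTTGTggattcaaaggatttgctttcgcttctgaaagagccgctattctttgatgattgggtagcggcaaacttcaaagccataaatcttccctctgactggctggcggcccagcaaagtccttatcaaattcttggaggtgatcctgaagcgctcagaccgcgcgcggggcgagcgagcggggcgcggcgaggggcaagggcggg
LRRTM3: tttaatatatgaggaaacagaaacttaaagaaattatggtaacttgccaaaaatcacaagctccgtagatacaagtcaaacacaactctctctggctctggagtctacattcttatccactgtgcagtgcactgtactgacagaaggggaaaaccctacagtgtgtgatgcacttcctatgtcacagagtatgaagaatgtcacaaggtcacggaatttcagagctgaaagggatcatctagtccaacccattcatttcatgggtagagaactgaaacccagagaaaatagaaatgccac
L1TD1: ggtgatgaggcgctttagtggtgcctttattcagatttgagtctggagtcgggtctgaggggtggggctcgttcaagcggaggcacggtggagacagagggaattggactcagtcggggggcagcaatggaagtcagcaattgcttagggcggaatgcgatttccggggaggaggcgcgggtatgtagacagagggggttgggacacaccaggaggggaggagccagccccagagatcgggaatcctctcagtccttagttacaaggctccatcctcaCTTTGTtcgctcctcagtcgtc
DPPA4: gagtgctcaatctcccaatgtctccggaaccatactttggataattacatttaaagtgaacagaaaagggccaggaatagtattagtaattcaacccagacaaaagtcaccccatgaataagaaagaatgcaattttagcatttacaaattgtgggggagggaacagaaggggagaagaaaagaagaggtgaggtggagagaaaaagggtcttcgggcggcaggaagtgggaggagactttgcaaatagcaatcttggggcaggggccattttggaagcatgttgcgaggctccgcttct
NANOG: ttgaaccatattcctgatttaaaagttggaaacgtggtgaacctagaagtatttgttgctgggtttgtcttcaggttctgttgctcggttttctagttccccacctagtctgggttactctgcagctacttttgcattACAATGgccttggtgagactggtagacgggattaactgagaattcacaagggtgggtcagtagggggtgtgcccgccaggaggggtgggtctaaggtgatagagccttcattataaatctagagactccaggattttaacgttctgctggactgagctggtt
CER1 encodes a secreted antagonist of Nodal and BMP, and its promoter (chr9:14722684-14722983, minus strand) held 1 TAATGG on the minus strand of the gene, written as its reverse complement. A peak of 309 tags and 28.0-fold enrichment overlapped its start. RPF1, a ribosome production factor gene (chr1:84479016-84479315, plus strand), also held TAATGG, and its peak had 185 tags and a fold of 29.25. SP5, a WNT-responsive zinc finger gene (chr2:170715087-170715386, plus strand), held 1 TAATTG and 1 ACAAAG beside a peak of 83 tags and a fold of 19.98. MACROH2A1, which encodes a histone variant (chr5:135399182-135399481, minus strand), held ACAATG in a window of 77.3% GC. The windows of TIMP4, a metalloproteinase inhibitor gene (chr3:12158863-12159162, minus strand), and LRRTM3, a synaptic membrane protein gene (chr10:67012016-67012315, plus strand), held none of the 5 sequences, although their peaks reached folds of 26.1 and 16.4. Among the core genes, the NANOG window (chr12:7789152-7789451, plus strand) held ACAATG and that of L1TD1, an RNA-binding protein gene of stem cells (chr1:62194599-62194898, plus strand), held ACAAAG. No match was found in the window of DPPA4, a nuclear protein gene of pluripotent cells (chr3:109337497-109337796, minus strand). These 3 core genes had weaker promoter peaks, with folds of 3.59, 6.14 and 5.13 for NANOG, L1TD1 and DPPA4. A match is a description of the letters and not of a bound site.

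Against all promoters the motifs were slightly more frequent with a summit within 500 bp of the start, and the difference was larger within 250 bp. A summit up to 500 bp away may lie outside the scanned letters, which run from 250 bases before to 50 bases after the start. Of the 14458 genes with a recovered start and a RefSeq promoter, 883 had a summit within 500 bp of the start. TAATGG was in 5.32% of these (interval 4.03 to 7.01%) and in 4.92% of all promoters, and TAATTG in 6.34% (4.92 to 8.15%) against 5.63%. The octamer ATGCAAAT was in 2.72% (1.83 to 4.01%) against 1.65%. ACAATG was in 9.40% against 7.89% and ACAAAG in 13.3% against 12.6%. The intervals of both homeodomain and both SOX sequences held the share of all promoters, and that of the octamer did not. With the summit within 250 bp (467 promoters) TAATTG was in 8.57% (6.35 to 11.5%), but the median GC content of these promoters was 57.7%, against 63% over all, and its part in the difference was not tested. Of the 30 promoters with a summit within 500 bp and a fold of at least 10, 8 held a homeodomain sequence (26.7%, interval 14.2 to 44.4%), against 9.97% of all promoters, and none held the octamer (interval up to 11.4%).

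The deposited tags, folds and scores are the authors' values and are used only within this list. A tag is a sequenced read placed in the peak, the fold is enrichment over background, and the score is taken to be 10 times the negative decimal logarithm of the p-value. A typical peak was short and weak. The median peak held 40 tags (29 at the 25th and 63 at the 75th percentile, highest 733) over 705 bp (589 and 905 bp, 244 to 6536 bp), and its fold was 5.11 (4.08 and 7.36, highest 69.2). A fold of at least 10 was reached by 4871 peaks (14.4%), of at least 20 by 1156 (3.42%) and of at least 50 by 33. The summit lay close to the middle of the peak, at a median of 50.2% of the width and within 100 bp of the centre in 71.4% of peaks. Together the peaks covered 1.001% of the effective genome size in the header and held 3.48% of the unique tags. The 10% of peaks with most tags held 30.3% of the tags in peaks.

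The measures of strength did not rank the peaks alike. Across the 33838 peaks, tags followed width (Spearman rho of 0.9002) more closely than fold (0.510), and width and fold were weakly related (0.246). These are descriptions across peaks that share 1 library, and a wider peak sums tags over more bases. The 10 peaks of highest score and the 10 widest had no peak in common, the first 10 by score and by tags shared 3, and those by tags and by width shared 1. The widest peak, of 6536 bp, was nearest to PLS3, the gene of an actin-bundling protein, and had 661 tags but a fold of 8.68. Other peaks among the widest lay nearest to FAM86B3P, OTOAP1, FRG1, ZNF649, COMMD7, PLAAT4, FAM72D and FGFR1. FAM86B3P, OTOAP1, FRG1 and FAM72D have near-identical copies elsewhere in the genome, but these peaks lay 85.0, 87.0, 285 and 98.8 kb from their starts. Whether the sequence under the peaks is also repeated, which would make the placement of reads uncertain, was not tested. The folds of the 10 widest peaks ran from 2.80 to 16.5, against 34.1 to 67.6 for the 10 of highest score.

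NANOG peaks were mostly distant from gene starts. Only 906 peaks (2.68%) overlapped a start, 2592 (7.66%, interval 7.38 to 7.95%) lay within 1 kb, and 18084 (53.4%) lay over 50 kb away, with a median distance of 58.8 kb from the nearer peak edge. Of the distant peaks, 2768 (8.18% of the list) were over 500 kb and 727 over 1 Mb from either listed start. Enrichment was higher farther from starts: the median fold was 4.13 for peaks that overlapped a start, 4.135 up to 1 kb, 4.59 from 1 to 5 kb, 4.97 from 5 to 50 kb, 5.40 from 50 to 500 kb and 5.92 beyond. The share with a fold of at least 20 went from 1.32% (interval 0.759 to 2.30%) at starts to 5.24% beyond 500 kb. Width went the other way, from a median of 867.5 bp at overlapped starts to 672 bp beyond 500 kb. Peaks within 1 kb that did not overlap a start lay before it in 53.6% of cases, whereas from 5 to 50 kb 45.2% did.

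**Figure D1:**
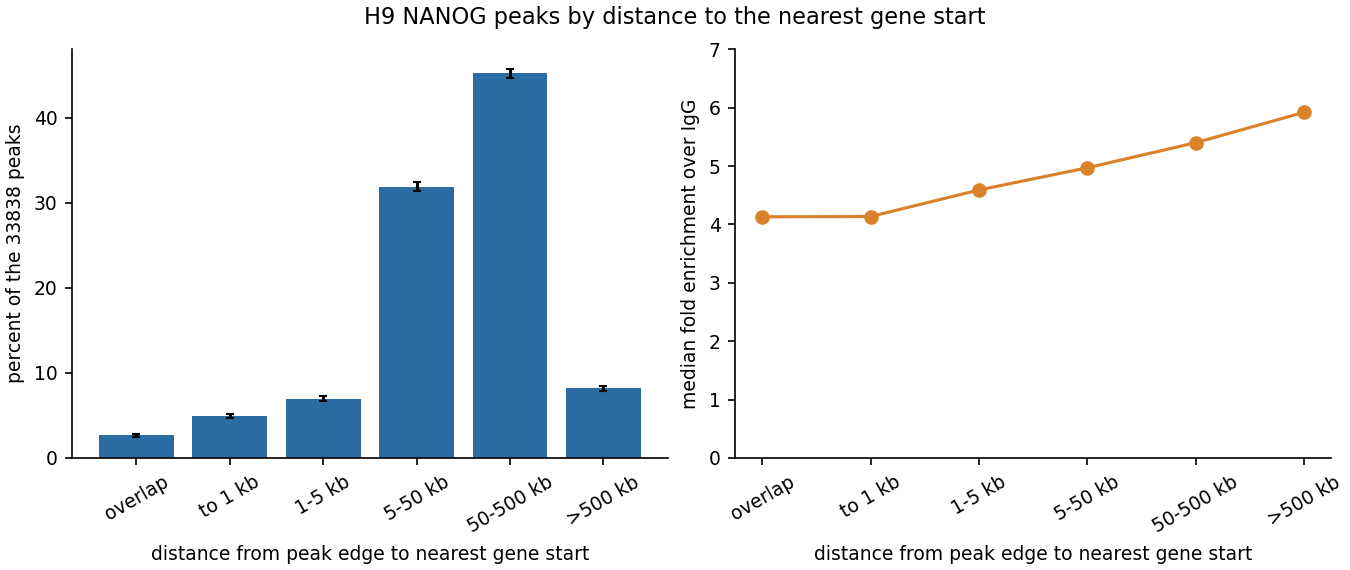
Share of the 33838 peaks (left, bars with 95% Wilson intervals) and their median fold enrichment over IgG (right, points joined by lines) in 6 classes of distance from the peak edge to the nearest gene start. The classes from 5 to 500 kb hold most peaks, and the median fold goes from 4.13 at starts to 5.92 beyond 500 kb.

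Near the starts, summits were most frequent shortly before the start and sparser just past it. Of the 32172 peaks whose nearest gene had a recovered start, 1927 had their summit within 1 kb of it. Of these, 1118 lay before and 809 at or after the start. The fullest 100-bp bin, from 300 to 200 bp before the start, held 162 summits, and the emptiest on the other side, from 200 to 300 bp after it, held 58.

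The strongest peaks were the least promoter-proximal. In 10 equal classes of score, from lowest to highest, the share within 1 kb of a start was 8.30, 10.02, 10.5, 10.6, 9.60, 9.16, 7.77, 4.28, 3.31 and 3.01%. Median distance went from 47.3 to 82.4 kb and median width from 542 to 1037 bp. The same order held within classes of width. Among the widest peaks (814 bp or more), 15.4% of those below the median fold of the class lay within 1 kb, against 3.53% of those at or above it. In the narrowest class (up to 629 bp) these shares were 9.15 and 4.57%, and in the middle class 10.8 and 2.53%. The false discovery rate in the list did not follow the score throughout: its median went from 8.04% in the lowest class to 0.27% in the eighth and was 0.51% in the highest.

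**Figure D2:**
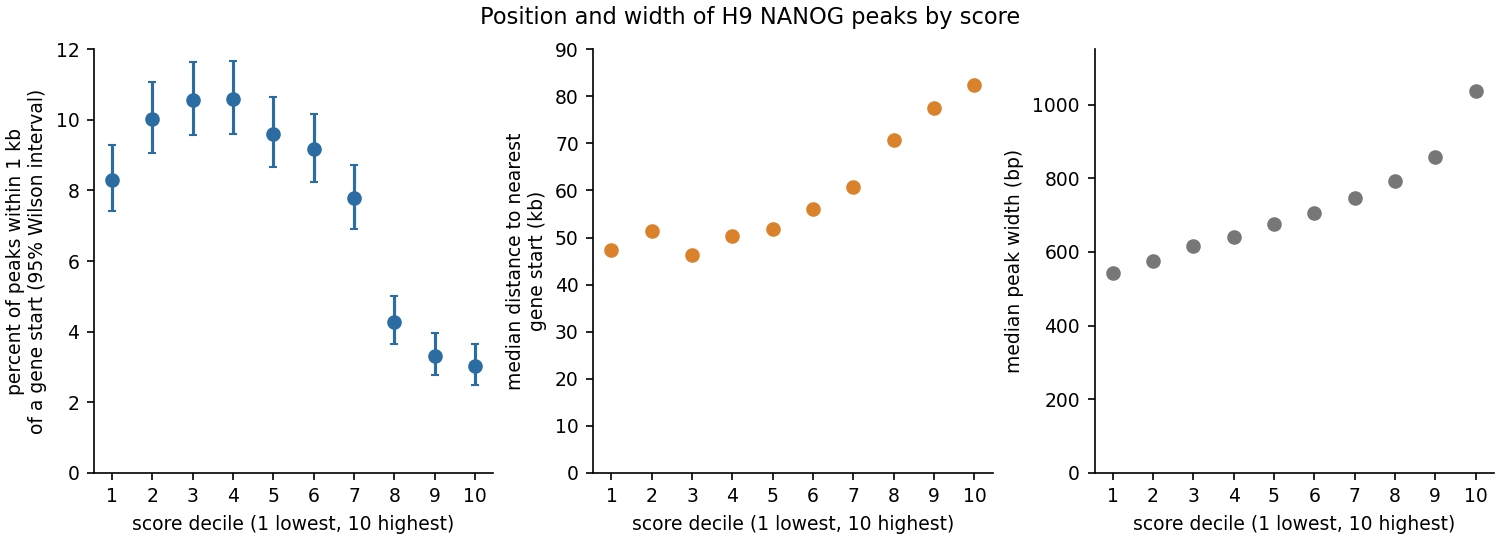
Peaks in 10 equal classes of score, from lowest (1) to highest (10): percent within 1 kb of a gene start with 95% Wilson intervals (left), median distance to the nearest start in kb (middle) and median width in bp (right). The share near starts is 10.6% in the fourth class and 3.01% in the highest, where distance and width are greatest.

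The peaks at the top of the list were mostly far from a gene start, and a few lay nearest to known stem cell genes. Of the 10 peaks of highest score, 7 were over 50 kb from a start, as were 53.4% of all peaks. The highest score, 3200.24, belonged to a peak of 477 tags and 50.7-fold enrichment 365 kb before AUTS2, a neurodevelopmental gene. Next came peaks 755 kb past the start of PCDH11X, a protocadherin gene, with a fold of 45.1, and 711 kb before MAP3K7, the gene of the kinase TAK1, with 733 tags, the most in the list, and a fold of 67.6. The others over 50 kb away lay nearest to MARCKS (79.6 kb, fold 52.1), KCNJ2 (863 kb, 41.4), TECRL (327 kb, 34.1) and PRDM14 (92.9 kb, 51.9). PRDM14 encodes a zinc finger regulator of human pluripotency, while KCNJ2 encodes a potassium channel. Closer to a start were a peak 8035 bp past that of MIR9-2HG, the host transcript of the neural microRNA miR-9, with 463 tags and a fold of 51.4, and a peak 3727 bp before ANKRD1, a muscle ankyrin repeat gene, with 417 tags and a fold of 56.2. The tenth was the peak 932 bp before POU5F1, which had 571 tags, a width of 1967 bp and a fold of 38.2. A false discovery rate of 0 was given to 27 peaks, of which 21 lay over 50 kb and 1 within 1 kb of a start.

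By tags, the first 10 added peaks nearest to MBL2, LINC00882, MME, CECR1, CD83 and NAALADL2, with 531 to 603 tags. MME encodes the peptidase CD10 and MBL2 a lectin of innate immunity. These peaks reached folds of 23.1 to 39.9.

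Within 1 kb of a start, the POU5F1 peak had the highest score. PRICKLE1, a planar cell polarity gene, had a peak of 294 tags with an edge 8 bp before a start and a fold of 44.0. SFRP2, which encodes a secreted WNT antagonist, had 283 tags and a fold of 32.6. OTX2, a homeodomain regulator of forebrain and of the transition out of naive pluripotency, had 374 tags and a fold of 33.1 across a start, and CER1 is described above. The other peaks of this set were at NTMT2, SOX6, AK4, PSMD9 and SLC7A5P2, with folds of 23.2 to 42.6. Among the core genes in this range, DNMT3B, a DNA methyltransferase gene (702 bp past a start), reached 25.4-fold with 145 tags and TCF7L1, a repressor of the WNT pathway (952 bp past), 29.5-fold with 269 tags.

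Peaks were unevenly spread among genes. Each peak was given to whichever of its 2 listed genes was nearer, and of 18412 genes with a recovered start 8460 (45.9%) had a peak within 50 kb, 2342 (12.7%) within 1 kb, and 380 (2.06%) had 5 or more within 50 kb. Genes with 1 peak numbered 4910, those with 2 1947, those with 3 or 4 1223, those with 5 to 9 360 and those with 10 or more 20. The median fold of the strongest peak went from 4.62 in genes with 1 peak to 12.045 in those with 10 or more, but the typical peak was no stronger: the median over genes of their median fold was 4.62 and 4.70. Genes with 5 or more peaks also had more room. The bases within 50 kb that lie nearer to a gene's starts than to any other start, its territory, had a median of 100 kb in these genes and 58.6 kb over all, and genes with 10 or more peaks had a mean of 2.35 recovered starts, against 1.10 in genes with 1 peak.

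SOX2, ZIC4, RUNX1T1 and NR2F2 had the most peaks within 50 kb, 14 each. SOX2 encodes the HMG-box partner of NANOG and OCT4, ZIC4 a zinc finger factor of the developing brain, RUNX1T1 a transcriptional corepressor and NR2F2 the nuclear receptor COUP-TFII. TBX3, a T-box gene, had 13, as did DTNA and SORBS2, which encode a dystrophin-associated protein and an adaptor of the cytoskeleton. NR2E1, which encodes the neural stem cell receptor TLX, and LINC00623 had 12, BCOR, a Polycomb-associated corepressor gene, and FYN, a kinase gene, 11, and MIR9-2HG, OTX2, PRICKLE1 and ZFHX3 10. DTNA and SORBS2 had 5 recovered starts each, and no single start of theirs had more than 5 and 8 summits within 50 kb. BCOR had 2 recovered starts and FYN 3, with at most 6 and 7 summits within 50 kb of a single start. RUNX1T1 had 4 recovered starts and NR2F2 and PRICKLE1 3 each, with at most 12, 14 and 9 such summits. OTX2 had 2 and MIR9-2HG 3, with at most 9 and 10. LINC00623 had 4 summits within 50 kb of its 1 recovered start, in peaks along chr1:149577434-149606340. Its other peaks lay far from these, along chr1:144310884-144505272, so its count of 12 is not that of 1 locus. SOX2, ZIC4, TBX3, NR2E1 and ZFHX3 each had 1 recovered start with at least as many summits within 50 kb as assigned peaks.

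The 14 peaks of SOX2 were mostly broad and low. Along chr3:181412529-181449185 (hg19), 13 peaks formed a group in which each summit lay at most 10 kb from the next. Their median fold was 3.51 and their highest fold 7.61. The peak nearest the start, 185 bp before it, had 62 tags and a fold of 4.39, and the widest, 2628 bp past it, had 214 tags over 2916 bp and a fold of 7.61. The strongest stood outside the group, 43847 bp past the start, with 183 tags and a fold of 13.7. ZIC4 and its neighbour ZIC1 lay in the largest such group, 16 peaks along chr3:147073761-147129775 with folds of at most 5.86. TBX3 showed the same form, 11 peaks with a median fold of 4.01 and a highest of 8.14. By contrast, POU5F1 had 2 peaks, with folds of 38.2 and 4.28.

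**Figure D3:**
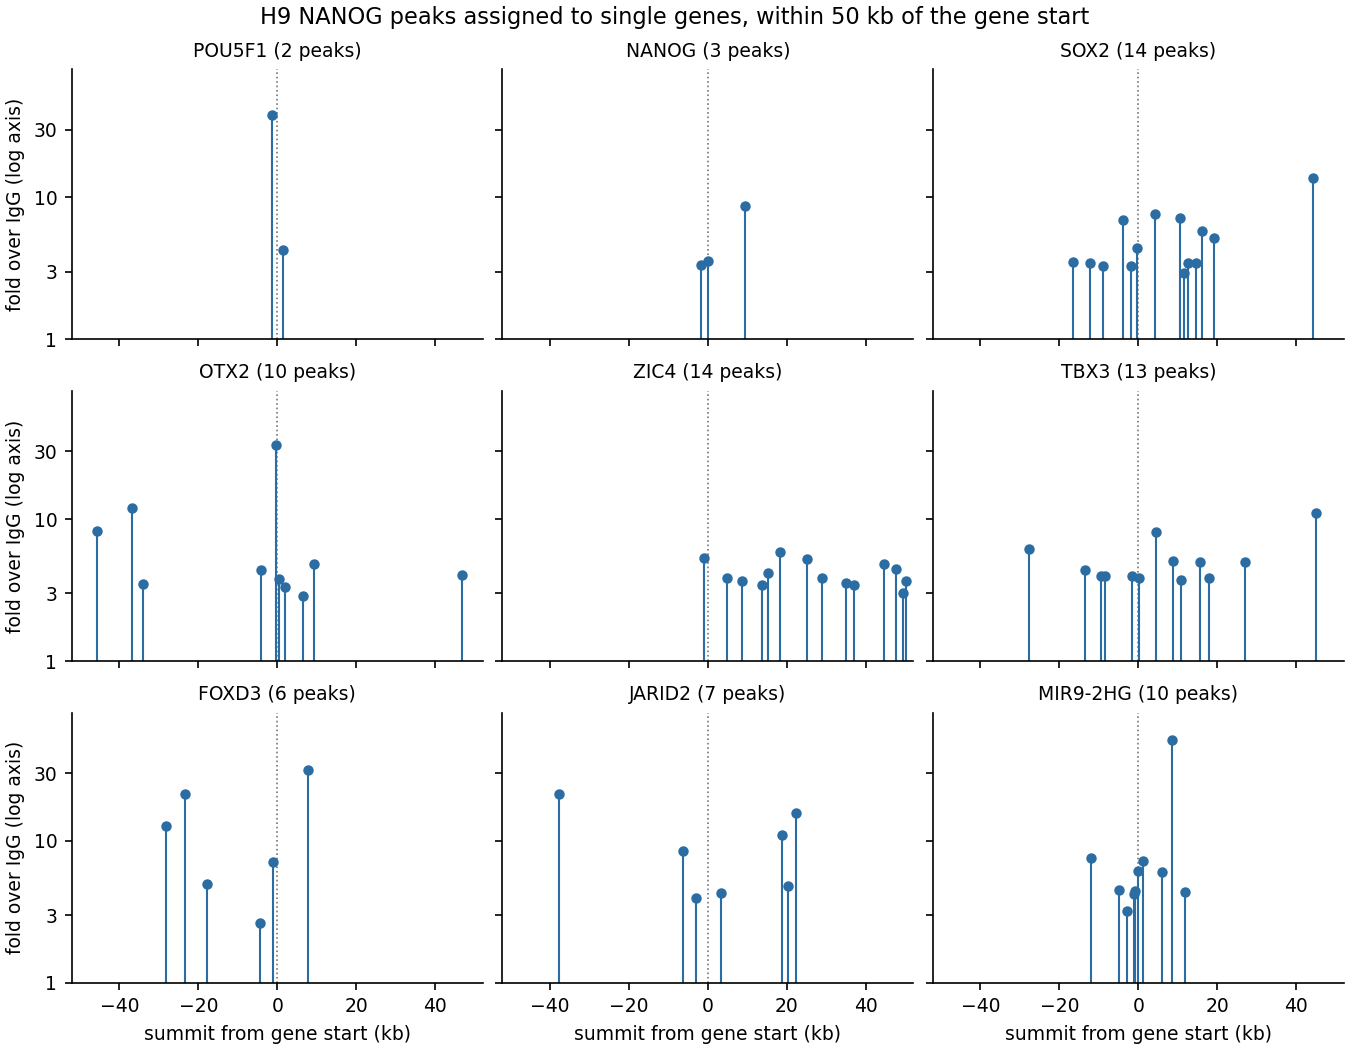
Fold enrichment over IgG (log axis) of each peak assigned to 9 genes within 50 kb, against the position of its summit in kb. Positions are from the start to which each peak was assigned (dotted line), negative before it. POU5F1 and OTX2 have 2 recovered starts and MIR9-2HG 3, so their peaks may be measured from different starts. POU5F1, OTX2, FOXD3 and MIR9-2HG each have at least 1 peak above 30-fold, whereas the 14 peaks of ZIC4 have folds of 3.02 to 5.86.

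Some peaks lay in groups. Summits within 10 kb of each other were linked, which left 21879 peaks (64.7%) single and gave 156 groups of 5 or more with 913 peaks (2.70%). Beside ZIC4 with ZIC1, SOX2 and TBX3, large groups lay at SKIDA1 with MLLT10 (11 peaks), at ZFHX3, SP8, NR2E1, HOXB13 and HAND2 (10 each), and at PAX6, NR2F2 and HOXB3 to HOXB5 (9 each). Groups of 8 lay at ZIC2 with ZIC5 and at DISC2, where the median fold was 8.03. SP8, HAND2 and PAX6 are transcription factors of limb, heart and eye development. These genes were chosen after their values were seen. Peaks in groups of 5 or more were wider than single ones (median 864 against 683 bp), less enriched (fold 4.65 against 5.10) and within 1 kb of a start in 10.4% of cases (interval 8.59 to 12.6%) against 7.77%. The nearest other summit was at a median of 19.8 kb, and 74.7% of summits had another within 50 kb.

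With no limit of distance, the genes with most peaks had them mostly far from a start, at medians from 206 kb (RBFOX1) to 1156 kb (OLFM4). Whether these peaks lay inside the genes or between genes was not tested. ZNF608, a zinc finger gene, had 52 peaks at a median of 254 kb, with a highest fold of 37.2 for a peak 5261 bp before its start. OLFM4, a secreted glycoprotein gene, had 43 at a median of 1156 kb, and 1 within 50 kb. RBFOX1 had 42, TENM2 41, ADGRL2 39, FLRT2 and PCDH7 38, and CSMD3, ROBO1 and SPRY2 36. Such a count grows with the length of sequence that is nearest to a gene, and the counts were not set against that length. The farthest peak lay from 534 kb (RBFOX1) to 2576 kb (PCDH7) from a start, and the whole list had 11.5 peaks per Mb. RBFOX1 encodes a neuronal splicing factor, and TENM2, FLRT2, PCDH7 and ROBO1 encode neuronal adhesion or guidance proteins. The highest fold of this set, 52.01, belonged to a peak of PCDH7.

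Core pluripotency genes had peaks more often than genes in general, and their strongest peak had a higher fold. Of 40 such genes, 37 had a peak within 50 kb (92.5%, interval 80.1 to 97.4%), against 45.9% of all genes, 18 within 1 kb (45.0% against 12.7%) and 12 had 5 or more (30% against 2.06%). The strongest peak had a fold of at least 20 in 14 of them, against 2.09% of all genes. Its median fold was 13.1, against 5.19 over the genes with a peak. This is a maximum per gene, and over all genes it rose from 4.62 with 1 peak to 12.045 with 10 or more. How much of the difference in fold goes with the number of peaks was not tested. Core genes had 4.79 peaks per 100 kb of territory, against 1.35 over all genes, so the difference in peak number remained per base. The lists were chosen with earlier results of these data known, and these counts are not independent evidence.

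Peak strength varied widely among the genes of pluripotency factors. Peak counts and strongest folds from here on are within 50 kb of a start unless another limit is given. At NANOG itself, 3 peaks were found: 74 tags and a fold of 3.35 at 821 bp before the start, 44 tags and 3.59 across it, and 145 tags and 8.69 at 8205 bp past it. The peak across the NANOG start had a score of 30.1, just above the lowest score of 30 in the list. NANOG has processed pseudogenes of near-identical sequence, so reads within its transcript may be placed uncertainly. KLF4, ESRRB, LIN28A and KLF2 had 1 peak each within 50 kb, with folds of 3.70 to 5.55. At any distance KLF4 had 12 and ESRRB 5, and LIN28A and KLF2 still 1 each. MYC had 3 peaks within 50 kb (5 at any distance) and MYCN 2, with strongest folds of 7.70 and 6.26. PRDM14, L1TD1 and ZSCAN10, the last a zinc finger gene of stem cells, had 6, 7 and 3 peaks with strongest folds of 9.35, 7.32 and 7.02 within 50 kb. SALL4, a zinc finger partner of OCT4, had 5 peaks, 1 of 170 tags and 18.7-fold at 8809 bp before its start. LIN28B, a blocker of let-7 maturation, had 290 tags and 21.3-fold over 3222 bp across its start.

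Several other genes of the core list had peaks above 20-fold. DPPA5, an RNA-binding protein gene of stem cells, had 479 tags and a fold of 40.3 at 4201 bp past its start. TERF1, a telomere-binding protein gene, had 403 tags and 38.0-fold at 6151 bp before its start. FOXO1, a forkhead gene, had 312 tags and 33.2-fold, and FOXD3, a forkhead gene of epiblast and neural crest, 6 peaks with folds of 2.63 to 31.4. TRIM71, an RNA-binding ubiquitin ligase gene, had 7 peaks and a highest fold of 26.7, and KLF5 3 with a highest of 23.5. JARID2, a partner of Polycomb complex PRC2, had 7 with a highest of 21.5 and 33 at any distance. ZFP42, PODXL, DPPA4 and UTF1 had strongest folds of 14.0, 10.1, 13.1 and 12.5, and CDH1 (E-cadherin) and FGF4 4.89 and 4.86. No peak was assigned to DPPA2, DPPA3 or TFCP2L1 within 50 kb. DPPA2 and DPPA3 had 2 and 3 summits in that window that were nearer to other genes, and TFCP2L1 had none.

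The Nodal ligand and antagonist genes had peaks of different strength. LEFTY1 and LEFTY2, secreted Nodal antagonists, had peaks of 365 tags (27.4-fold, 9688 bp before the start) and 349 tags (26.6-fold, 3731 bp before). NODAL had 4 peaks, the strongest of 112 tags and 12.2-fold at 13276 bp before its start. GDF3, a ligand of the family, had 158 tags and 10.5-fold across its start, and CRIPTO, the Nodal co-receptor gene also called TDGF1, 371 tags and 14.6-fold over 2562 bp. BMP7 held the highest fold of the pathway list, 53.6 with 296 tags at 33914 bp past its start. SMAD7, an inhibitory SMAD gene, had 6 peaks and a highest fold of 23.9 with 424 tags. Of the 34 pathway genes listed for Nodal, TGF-beta and BMP, 29 had a peak within 50 kb (85.3% against 45.9% of all genes). A peak within 1 kb was found at 10 (29.4% against 12.7%), and 4 had 5 or more (11.8% against 2.06%). Their territory held 2.65 peaks per 100 kb, against 1.35 over all genes.

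In the FGF and ERK list the peak of highest score was at DUSP6, the ERK phosphatase gene. This peak had 413 tags and a fold of 33.0 at 1515 bp past the start. DUSP6 had 6 peaks within 50 kb and 17 at any distance. The next by score were FGFR1, FGFR2, ETV1 and FGF13, with folds of 8.84 to 17.3. The feedback inhibitor genes SPRY1 and SPRY4 had 6 peaks each and SPRED1 and SPRED2 5, with folds of at most 17. Of 22 genes, 19 had a peak within 50 kb (86.4% against 45.9% of all genes). A peak within 1 kb was found at 11 (50% against 12.7%), and 6 had 5 or more (27.3% against 2.06%). FGFR3, FGFR4 and 1 other gene had none.

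In the WNT list, the highest scores were at FZD7, WNT3 and SFRP2. FZD7, a Frizzled receptor gene, had 9 peaks, the strongest of 365 tags and 37.6-fold at 10360 bp before its start. The ligand gene WNT3 had 283 tags and 41.6-fold at 45175 bp, SFRP2 and TCF7L1 are given above, and FZD8 had a highest fold of 31.2. TCF7L2 had 9 peaks and a highest fold of 13.8. Of 28 genes, 22 had a peak within 50 kb (78.6% against 45.9% of all genes). Within 1 kb 10 had a peak (35.7% against 12.7%), and 6 had 5 or more within 50 kb (21.4% against 2.06%). WNT3A, LRP5, LGR5 and NKD1 were among the 6 without a peak within 50 kb.

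Regulators of later lineages carried many peaks, mostly weak. Of 35 neuroectoderm regulators 34 had a peak within 50 kb (97.1%, interval 85.5 to 99.5%), against 45.9% of all genes. Those with 5 or more numbered 11 (31.4% against 2.06%), and the list had 5.004 peaks per 100 kb, against 1.35 over all genes. Yet the median fold of their strongest peak was 5.97, against 5.19 over all genes with a peak and 13.1 in the core list. PAX6, the eye and brain regulator, had 10 peaks with folds of at most 6.02. The exceptions by score were ZFHX3 (40.6-fold, 248 tags), OTX2, ISL1, a LIM homeodomain gene (29.4-fold, 162 tags), HES5, a Notch target (31.8-fold, 95 tags over 522 bp), and LHX2 (19.03-fold). POU3F1 had no peak within 50 kb. Whether these genes are expressed was not measured in these libraries.

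Of 22 mesendoderm regulators, 19 had a peak within 50 kb (86.4% against 45.9% of all genes) and 3 had 5 or more (13.6% against 2.06%). The median strongest fold was 5.65, against 5.19 over all genes with a peak. The 5 peaks of highest score were at CER1, CDX2, EOMES, KDR and GATA4, with folds of 28.0, 23.6, 27.4, 15.3 and 8.68. TBXT, the Brachyury gene, had 1 peak with 23 tags and a fold of 5.18. In the trophectoderm list, which shares CDX2, EOMES and HAND1, 14 of 18 had a peak (77.8%, interval 54.8 to 91.0%), against 45.9% of all genes. Those with 5 or more numbered 6 (33.3% against 2.06%). TFAP2C had 182 tags and 16.5-fold, GATA3 216 tags and 10.2-fold, and KRT18, a keratin gene, 104 tags and 20.7-fold. KRT7, ELF5, PGF and DLX3 had none.

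HOX genes, which pattern the body axis, lay in dense runs of low peaks. Of 38, 28 had a peak assigned within 50 kb (73.7% against 45.9% of all genes). Every one of the 38 had a summit in that window, against 67.5% of all genes. A peak is given to the nearest of several neighbouring HOX genes. Their median territory was 12.4 kb and held 7.91 peaks per 100 kb, the highest of the 12 lists. The median fold of the strongest peak was 4.21, the lowest of the 12. HOXB1 and HOXD1, at the 3′ ends of their clusters, had strongest folds of 18.3 and 16.6, each past the start, and HOXD12 had 11.5.

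Of 30 chromatin regulators with a recovered start, 20 had a peak within 50 kb (66.7%, interval 48.8 to 80.8%), against 45.9% of all genes. A peak within 1 kb was found at 8 (26.7% against 12.7%), and 3 had 5 or more (10% against 2.06%). JARID2 is described above, and PHC1, a subunit of Polycomb complex PRC1, had 390 tags and 31.0-fold at 1304 bp before its start. REST, the repressor of neuronal genes, had 216 tags and 25.2-fold with an edge 64 bp before its start, and KDM4C, a histone demethylase gene, had 6 peaks, with a fold of 17.4 in that of highest score. EZH2, SUZ12, SMARCA4 and KDM5B had none.

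**Figure D4:**
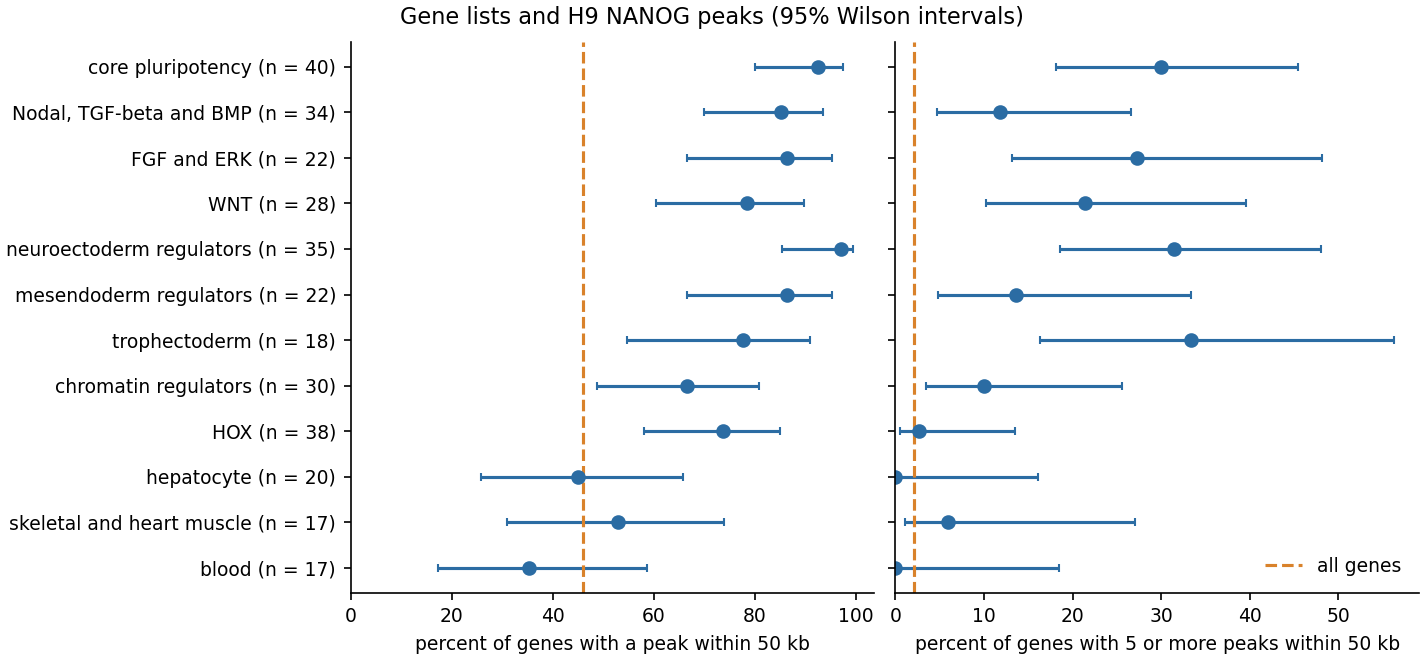
Percent of the genes of 12 lists with at least 1 peak (left) and with 5 or more peaks (right) within 50 kb, with 95% Wilson intervals; n is the number of genes with a recovered start and the dashed line is the share of all 18412 genes. The core pluripotency list is at 92.5% and 30%, and the hepatocyte list at 45.0% and 0%.

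Genes of other cell types were near the level of all genes. Of 20 hepatocyte genes, 9 had a peak within 50 kb (45.0%) and none within 1 kb, of 17 muscle genes 9 (52.9%) and 2, and of 17 blood genes 6 (35.3%) and 1. Over all genes, 45.9% had a peak within 50 kb and 12.7% within 1 kb. The peak density of these lists was in turn 0.997, 2.08 and 1.06 per 100 kb, against 1.35 over all genes. Their median strongest folds were 4.54, 4.86 and 4.58. The strongest were at APOB (18.7-fold), the gene of the main LDL protein, ACTA1 (18.1) and MYF6 (13.7), muscle genes, and ZAP70 (23.3), a T cell kinase gene. Among the markers of embryonic stem cells, POU5F1, SOX2, NANOG, LIN28A, ZFP42, DPPA4, CRIPTO and SALL4 all had a peak within 50 kb, as did 45.9% of all genes. These markers are part of the core list, in which DPPA2, DPPA3 and TFCP2L1 had none. The only peak of LIN28A was weak, with 19 tags and a score of 35.25. A peak near a gene does not measure its RNA, so the cell type in the labels was not checked by expression. Over the 12 lists, 15 of 310 genes were in more than 1 list, and lists of other cell types held 1 gene with a strongest fold of at least 20.

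Peak density varied little among chromosomes, while the share near starts followed gene density. There were 11.5 peaks per Mb between the outermost peaks of the 6 lists, from 9.62 on chromosome 9 and 9.72 on X to 13.05 on chromosome 6, which holds POU5F1. The share within 1 kb of a start was 19.4% on the gene-rich chromosome 19 and 13.5% on 17, and 2.19% on X. Across the 23 chromosomes, genes per Mb had a Spearman rho of -0.131 with peaks per Mb and of 0.754 with the share within 1 kb, as a description of 1 library.

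**Figure D5:**
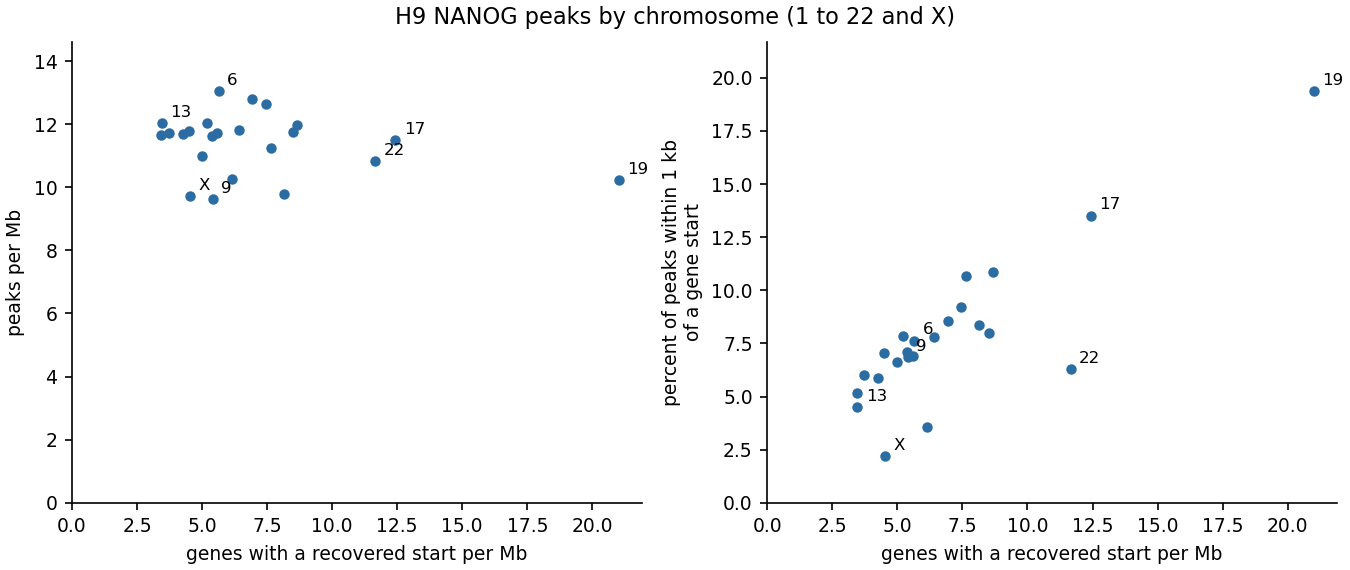
Peaks per Mb (left) and percent of peaks within 1 kb of a gene start (right) against genes with a recovered start per Mb, 1 point for each of 23 chromosomes, some labelled. Peak density stays between 9.62 and 13.05 per Mb, while the share near starts reaches 19.4% on chromosome 19.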

How the data were processed

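The deposited peak list gave, per the file headers, MACS peaks called for the NANOG library against the IgG library at a p-value cutoff of 0.001, with a tag size of 50, a band width of 2000, a model fold of 3 and a shift size d of 135. The MACS version and the aligner are not given in the sources used here, and coordinates are on hg19 according to the submitters' processing notes. The deposited tags are whole-number counts per peak, not normalized, and the fold is the ratio to background that the authors deposited. The deposited false discovery rate is in percent. The name of the deposited score column was overwritten in the file, and it was taken to hold 10 times the negative log10 of the p-value, its lowest value being 30. Distances to the nearest gene on each side were added by the authors, and their 0 means that a peak overlaps the start.

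Gene starts were recovered from the deposited distances of all 6 lists, of which 99.7% met at the start of their gene. This gave 18412 genes on chromosomes 1 to 22 and X, and 15775 of 16555 accessions in the list (95.3%) had a symbol in RefSeq (GRCh38.p14, used for names and promoters only). The recovery was tested on simulated data. Peaks were assigned to the nearer listed gene, and windows of 1 kb and 50 kb were used. Shares carry Wilson intervals at 95%. The choices varied were the false discovery rate, the score, the width of peaks, and how distance and genes were assigned. Of the genes listed, 4 had no recovered start and were left out of the counts. The 57 peaks on chromosome Y were left out.

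The genes named are all core pluripotency genes, those nearest to the 10 peaks of highest score, of most tags and of greatest width, those of the 10 highest-scoring peaks within 1 kb of a start, the 15 genes with most peaks within 50 kb and the 10 with most at any distance, and, from each of the other lists, the 5 members leading by score. Promoters on chromosome 8 were not considered for printing. A few genes under this rule are not reported here. Others named were chosen after their values were seen. The members and lists were chosen with earlier results of these data known. Python 3.11.15 with pandas 2.3.3, numpy 2.4.6, scipy 1.17.1 and matplotlib 3.10.9 was used.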

Additional observations from a re-analysis of the deposited data

Results flagged for a closer look

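The deposited list also held 57 peaks on chromosome Y (0.168% of the list), which the counts above leave out. They were noticed because they are signal in rows that no comparison used, above the 3 peaks that a count of 0 allows. H9 is established as a line with 2 X chromosomes. These peaks had 16 to 199 tags (median 47), folds of 2.83 to 24.5 (median 6.29) and a median width of 639 bp, and 9 had a fold of at least 10. What placed these reads on chromosome Y was not tested.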

How the results depend on the processing

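With a false discovery rate of at most 5%, 7.28% of peaks lay within 1 kb of a start, at a median distance of 61.3 kb, with medians of 46 tags and 742 bp, 69.3% of summits within 50 kb of another, and 232 genes with 5 or more peaks. In the upper 50% by score these were 5.51%, 69.2 kb, 59 tags, 817 bp, 56.3% and 76 genes, with 4852 genes having a peak within 50 kb. Fewer peaks enter each of these counts, and tags and width are greater at high score. Measured from the summit, 5.99% lay within 1 kb, over the 32172 peaks with a recovered start and not the whole list. With 10 kb in place of 50 kb, 35.3% of summits had another nearby. The other 12 alternatives stayed within their intervals or within 1.5 times the count, among them the count of genes with any summit within 50 kb of the start (12424), which was added after the data were seen, and those without the widest 1% of peaks. For the promoter motifs, 8 of 10 alternatives stayed within their intervals, while TAATGG and TAATTG were at 7.28 and 8.57% with summits within 250 bp. No paired analysis was possible because each group had 1 library. A depth of 1 library limits all values, and weak peaks near the score of 30 carry the highest false discovery rates.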
